A study of Caenorhabditis elegans with 2 samples.

Results

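The 612 nuclear transfer RNA (tRNA) genes of Caenorhabditis elegans were examined for peaks of the homeodomain protein CEH-43. They are all the nuclear genes of biotype tRNA in the Ensembl annotation of the WBcel235 assembly, out of 46890 annotated nuclear genes, and the rule uses no peak. The peaks came from chromatin immunoprecipitation with sequencing (ChIP-seq) on strain OP699, which has the allele unc-119(tm4063) and the insertion wgIs699. The insertion holds the fusion ceh-43::TY1::EGFP::3xFLAG together with the rescue gene unc-119(+). All the samples carry both, and the immunoprecipitation was with an antibody to GFP. The material was whole embryos of mixed stage and mixed sex with a stated age of 3 hours, obtained by egg bleaching, with chromatin sheared by sonication to between 200 and 800 bp. The 2 biological replicates form 1 group, so there was no comparison between conditions and no p-value was computed. No untagged strain was analysed here, so binding by CEH-43 and any recovery of tRNA genes that does not need CEH-43 cannot be told apart.

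A tRNA gene is transcribed by RNA polymerase III from a promoter that lies inside the gene. Its A box and B box, which also encode the D and T arms of the tRNA, are bound by TFIIIC, and TFIIIC places TFIIIB just upstream of the start of the gene. Genomes hold many copies of each tRNA gene, spread over the chromosomes, often with identical gene sequences and different flanks. CEH-43 is the worm counterpart of the fly homeodomain protein Distal-less, and such proteins bind A+T-rich words such as TAATTR.

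Sequences of 8 of the genes are printed here because they carry the main contrasts of the results: the gene with the highest signal, genes of identical sequence that differed in their peaks, and tRNA genes known from genetics. The 50 bases before the gene are in lower case and the annotated gene is in capitals, read 5′ to 3′ on the strand of the gene from the RefSeq copy of WBcel235. C04A11.t1, a gene for leucine tRNA, has the region chrX:13665505-13665673 on the plus strand, and its sequence includes an intron.
C04A11.t1: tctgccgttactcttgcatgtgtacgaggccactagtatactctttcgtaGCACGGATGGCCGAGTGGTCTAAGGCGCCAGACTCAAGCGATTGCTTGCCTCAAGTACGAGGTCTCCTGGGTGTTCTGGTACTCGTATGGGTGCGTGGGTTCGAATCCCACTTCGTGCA
The alanine genes F15G9.t1, with the region chrX:9743539-9743660 on the plus strand, and B0491.t2, with the region chrII:11334013-11334134 on the minus strand, share their gene sequence.
F15G9.t1: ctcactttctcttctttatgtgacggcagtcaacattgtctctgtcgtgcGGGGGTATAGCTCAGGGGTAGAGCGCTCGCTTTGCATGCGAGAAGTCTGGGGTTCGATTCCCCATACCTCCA
B0491.t2: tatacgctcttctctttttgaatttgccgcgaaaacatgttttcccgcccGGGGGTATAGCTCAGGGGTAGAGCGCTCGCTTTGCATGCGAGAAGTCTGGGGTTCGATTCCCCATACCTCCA
So do the glutamate genes C28G1.t1, with the region chrX:8836063-8836184 on the plus strand, and Y105C5B.t3, with the region chrIV:15933161-15933282 on the minus strand.
C28G1.t1: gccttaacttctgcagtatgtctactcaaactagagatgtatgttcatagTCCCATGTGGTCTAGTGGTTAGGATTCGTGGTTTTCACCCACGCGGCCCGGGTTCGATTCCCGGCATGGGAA
Y105C5B.t3: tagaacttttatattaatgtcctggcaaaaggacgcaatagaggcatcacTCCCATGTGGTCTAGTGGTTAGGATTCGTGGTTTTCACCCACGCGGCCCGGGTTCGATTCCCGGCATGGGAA
The tryptophan genes sup-5, with the region chrIII:8678497-8678618 on the minus strand, sup-7, with the region chrX:6371328-6371449 on the plus strand, and sup-21, with the region chrX:8877290-8877411 on the plus strand, also share 1 sequence.
sup-5: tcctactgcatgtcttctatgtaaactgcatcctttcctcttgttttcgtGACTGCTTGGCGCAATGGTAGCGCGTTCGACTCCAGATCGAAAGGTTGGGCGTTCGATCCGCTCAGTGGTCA
sup-7: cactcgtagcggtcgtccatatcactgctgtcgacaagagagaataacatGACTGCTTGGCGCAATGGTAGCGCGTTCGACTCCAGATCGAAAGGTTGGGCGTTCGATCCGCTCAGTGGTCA
sup-21: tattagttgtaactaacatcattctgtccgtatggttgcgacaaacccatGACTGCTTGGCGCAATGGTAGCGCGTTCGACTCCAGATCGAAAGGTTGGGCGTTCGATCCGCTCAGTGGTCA

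About 1 tRNA gene in 4 had a CEH-43 peak. A gene was called bound where a summit of the authors' thresholded list, the peaks they kept after a step on reproducibility between the replicates, lay within 100 bp of it. This held for 159 of the 612 genes (26.0%, exact Clopper-Pearson 95% interval 22.5 to 29.6%), against 1.62% of the 46278 other nuclear genes. In the longer relaxed list made from both replicates, 336 tRNA genes (54.9%) had a summit, against 26.2% of the other nuclear genes. In that list the share of protein-coding genes, which are far longer, was 45.1%, and that of other genes in the length range of the tRNA genes was 15.9%. The other nuclear genes include 15363 genes of biotype piRNA, with shares of 0.0325% in the thresholded list and 3.78% in the relaxed list. These shares by class leave out peaks at tRNA genes, which the 1.62% and 26.2% count. The tRNA genes thus fell into 159 bound genes, 177 genes (28.9%) with a summit in the relaxed list only, and 276 genes (45.1%) with none in either. No summit in any of the 4 lists was found at 233 genes (38.1%). The intervals cover counting error over genes only, and neither genes nor peaks of 1 list are replicates. Read depth is unknown from peak lists.

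The share was also high beside other short genes. Among 2629 other genes of 64 to 122 bp, the length range of the tRNA genes, 74 (2.81%, interval 2.22 to 3.52%) had a thresholded summit once peaks at tRNA genes were left out. The corresponding shares were 15.6% of 346 genes for small nucleolar RNAs (54 genes, interval 11.9 to 19.9%) and 6.2% of 129 genes for small nuclear RNAs (8 genes, interval 2.72 to 11.9%). RefSeq also annotates 209 nuclear tRNA pseudogenes, and 3 of them had a summit (1.44%, interval 0.297 to 4.14%). These were T08B2.t1, C52E12.t1 and D1046.t1, with signals of 278, 291 and 683. A B box word, GTTCGANNC on either strand, was in 72.2% of tRNA genes and in 69.4% of the tRNA pseudogenes, against 0.511% of all 72 bp windows of the nuclear genome.

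Peaks at tRNA genes were concentrated among the stronger ones. The signal is the value the authors' peak caller gave each peak, on a scale that the labels and headers do not state, and it was compared only within a list. It had a median of 235 (quartiles 178 and 337, n = 154) at tRNA genes, against 180 (quartiles 155 and 239, n = 821) at other nuclear peaks. By rank, 59 of the 200 strongest nuclear peaks lay at tRNA genes, against 11 of the peaks ranked 801 to 900. The highest peaks of the genome were elsewhere: the maximum was 694 at tRNA genes and 1516 at other nuclear peaks.

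The 10 tRNA genes with the highest signals covered 9 of the isotypes, and 7 of them were on the X chromosome. C04A11.t1 was first, with a signal of 694, at rank 37 in replicate 1 and 20 in replicate 2. F15G9.t1 (alanine) followed with 579 and ranks 50 and 33, inside an intron of him-4, the gene for the extracellular matrix protein hemicentin. C37A2.t1 (cysteine), on chromosome I in an intron of the cyclin E gene cye-1, had a signal of 571 and ranks 60 and 32. All of these stood within the 100 strongest peaks of each replicate. The other X-linked genes were C42D8.t1 (isoleucine, signal 532), F41D9.t3 (asparagine, 526), C28G1.t1 (glutamate, 519), C02B4.t2 (tyrosine, 513) and W03G11.t1 (lysine, 509). The remaining autosomal genes were F29C4.t1 (arginine, 516) on chromosome IV and T21B4.t1 (isoleucine, 504) on chromosome II, each on the opposite strand in an intron of a collagen gene, col-99 and col-85. T21B4.t1 was the least alike between the replicates of these 10, at rank 104 in replicate 1 and 41 in replicate 2.

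Genes of the same sequence differed in whether they had a peak. The 612 genes have 200 distinct sequences, and 57 of these occur in 2 or more copies, which make up 469 genes. Of these 57 sequences, 43 had both bound and not bound copies, 2 had bound copies only and 12 had none. In 37 of them a bound copy stood beside a copy with no summit in the relaxed list, and this was so for 31 of the 32 sequences with 5 or more copies. The largest set, the glycine sequence of C12C8.t1, has 29 copies, of which 9 were bound, 8 had a summit in the relaxed list only and 12 had none. Among the 20 sequences with 10 or more copies, the share bound ran from 8.33% (1 of 12 copies) for the valine sequence of C52G5.t1 to 58.3% (7 of 12) for the cysteine sequence of C37A2.t1.

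**Figure D1:**
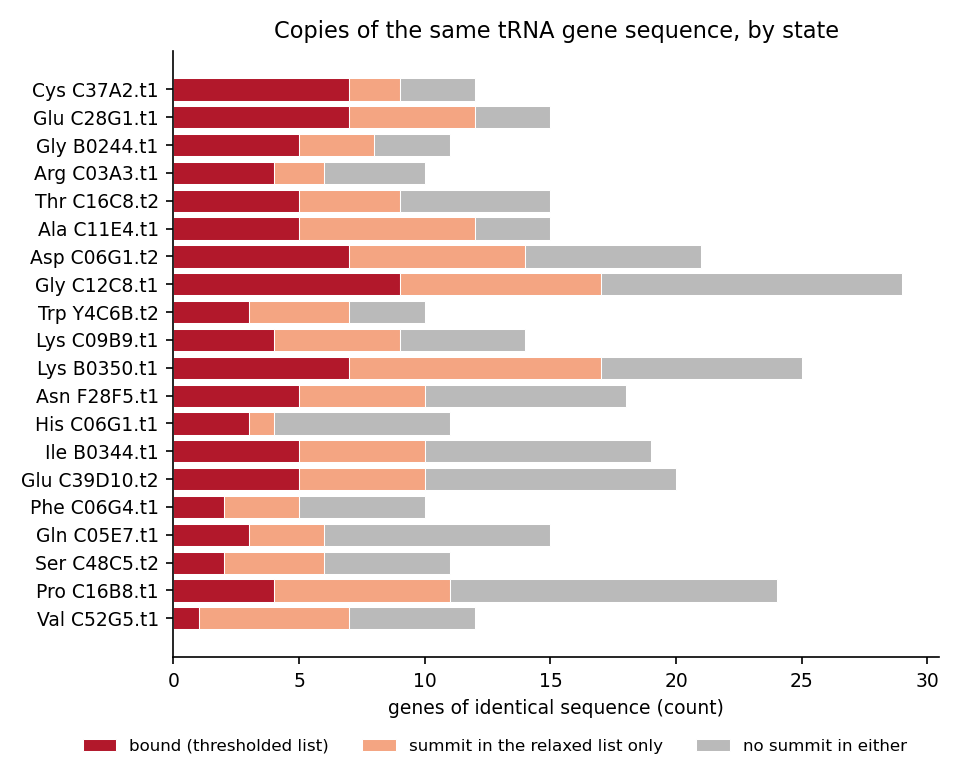
Number of genes with each of the 20 tRNA gene sequences present in 10 or more copies (x axis, count), each row named by its isotype and 1 of its copies, split into bound genes, genes with a summit in the relaxed list only and genes with none in either. Every row holds all 3 kinds of gene, from 7 of 12 bound for the cysteine sequence at the top to 1 of 12 for the valine sequence at the bottom.

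The pairs with the strongest bound copy show the contrast most plainly. F15G9.t1 had a signal of 579, and B0491.t2, 1 of the 8 copies of the same sequence, had no summit within 100 bp in any of the 4 lists. Their 50 upstream bases matched at 23 of 50 positions. C28G1.t1 had a signal of 519 and Y105C5B.t3 no summit in any list, with 12 of 50 upstream positions the same. C28G1.t1 lies 97 bp from a protein-coding start site and Y105C5B.t3 lies 682 bp from one. Whether the peak at C28G1.t1 belongs to the tRNA gene or to that start site was not tested. A further set of pairs was chosen by the same rule, the highest signals for which a copy without any summit existed outside chromosome I. They were C37A2.t1 and K04A8.t3 (cysteine, signal 571 at the first), C42D8.t1 and Y92C3A.t2 (isoleucine, 532) and F41D9.t3 and T09F5.t1 (asparagine, 526). In these pairs 10, 15 and 16 of 50 upstream positions were the same. Upstream matches between bound copies were not counted, so these values have no baseline. Reads that fall wholly inside such genes have several possible origins, and the labels and headers do not say how the authors placed them. None of the 31-base words within the 10 genes of these pairs is unique in the genome. Of the copies without a summit, K04A8.t3, Y92C3A.t2 and T09F5.t1 have flanks in which 100% of such words are unique, B0491.t2 has 96.6% and Y105C5B.t3 has 87.0%. Of the bound copies, F15G9.t1 has 87.0% and the other 4 have 100%.

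The tryptophan genes give the same picture for loci with a genetic history. The genes sup-5, sup-7, sup-21, sup-24, sup-28, sup-29 and sup-33 are known from mutations that turn them into suppressors of amber stop codons, and in the reference genome all 7 have 1 sequence, present in 10 copies. They were singled out for their names after their values had been seen. The gene sup-5, in an intron of fli-1, was at rank 62 of the thresholded list, with ranks 115 in replicate 1 and 39 in replicate 2. The gene sup-7 had a signal of 210 and ranks 308 and 554, and sup-24 had a signal of 168 and ranks 1349 and 394. By contrast sup-21 and sup-33 had no summit in any list, while sup-28 and sup-29 had one in the relaxed list only. The genes sup-28 and sup-33 lie 857 bp apart in introns of trk-1. The 50 bases before sup-7 and sup-21, both X-linked, matched at 19 of 50 positions.

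Genes whose sequence occurs once were bound less often than repeated ones. Of 143 unique genes 20 were bound (14.0%), against 139 of 469 repeated genes (29.6%), a difference of -15.7 percentage points (Newcombe 95% interval -22.0 to -7.93). To set the replicates side by side, the list of each was limited to its strongest peaks, as many as the thresholded list holds. The shares were then 12.6% of unique genes against 22.6% of repeated ones in replicate 1, and 15.4% against 30.7% in replicate 2. The number of copies beyond 1 went with little change: 34.6% of the genes in 2 copies were bound, 32.1% of those in 3 to 5, 28.0% in 6 to 10, 30.3% in 11 to 20 and 27.3% in over 20. Unique genes also differ in how far they diverge from other sequence. Within bound genes at most 73.8% of 31-base words were unique, while genes with a relaxed summit only and genes with none reached 100%. Divergence and number of copies were not separated. The B box word was in 62.9% of unique genes and in 74.8% of repeated ones. Among genes that hold the word the difference was -14.6 points, and among genes whose flanks are at least 90% unique in 31-base words it was -14.3. Among isolated genes it was -21.7 points (interval -30.0 to -11.6), and among clustered genes -8.83 (interval -17.1 to 4.37), which does not leave out 0. The counts by number of copies, word, flanks and clustering were added after seeing the data. Repeated flanks went the other way: none of the 13 genes with flanks at most 50% unique was bound, against 30.2% of the 394 genes with wholly unique flanks. All of these 13 genes were also without a summit in the relaxed list, against 37.8% of those 394. Whether reads could be placed at those 13 genes was not tested.

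**Figure D2:**
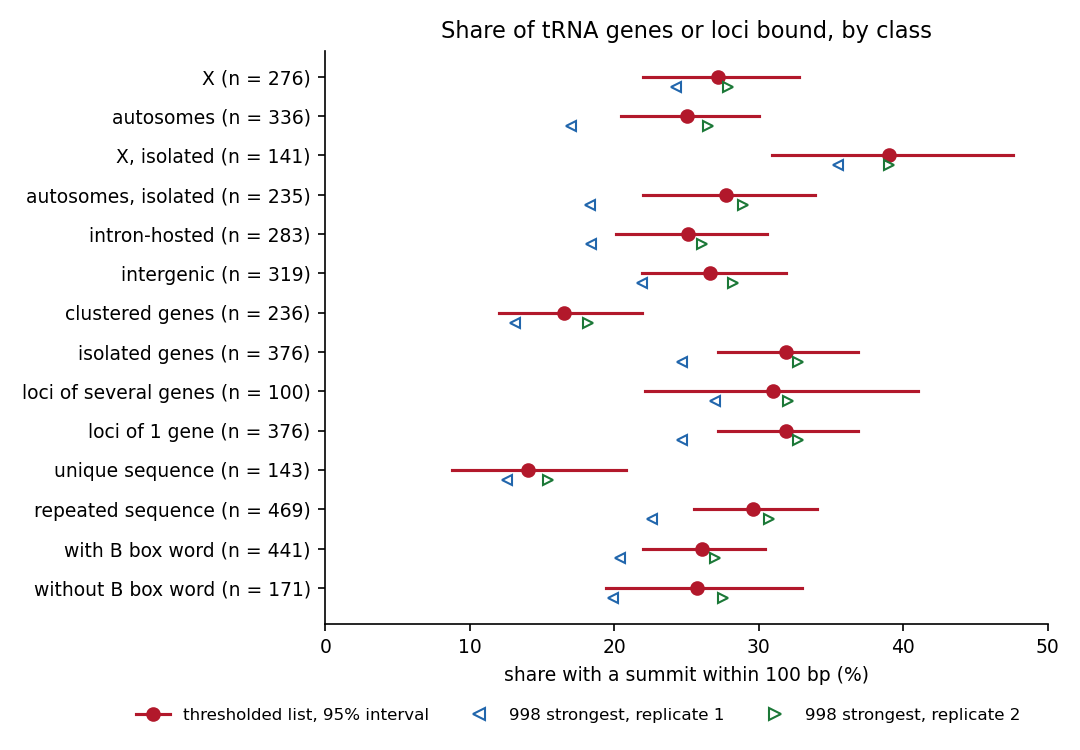
Share of tRNA genes, or of loci, with a summit within 100 bp (x axis, %), by class with its n. Filled points and lines are the thresholded list with exact 95% intervals, and open triangles are the same number of strongest peaks of replicate 1 and of replicate 2. Clustered genes and unique sequences stood lowest in all 3 lists, and loci of several genes stood level with loci of 1 gene. A locus counts as bound where any of its genes does.

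Per gene, clustered genes were bound less often than isolated ones, but per locus no difference could be detected. A gene was called clustered where another tRNA gene lay within 1000 bp. Of 236 clustered genes 39 were bound (16.5%), against 120 of 376 isolated genes (31.9%), a difference of -15.4 points (interval -21.8 to -8.46). Replicate 1 gave 13.1% against 24.7% and replicate 2 gave 18.2% against 32.7%. By distance to the nearest other tRNA gene, 19.3% were bound at 0 to 200 bp, 14.8% at 201 to 500 bp and 13.6% at 501 to 1000 bp. Farther apart, 29.2% were bound at 1001 to 5000 bp, 27.6% at 5001 to 20000 bp and 34.6% beyond that. Of the 21 bound genes at 0 to 200 bp, 14 shared their summit with a neighbour, so that share counts some peaks more than once. When genes within 1000 bp of each other were joined into 476 loci, 31 of the 100 loci of several genes had a bound gene (31.0%), against 31.9% of the loci of 1 gene, a difference of -0.915 points (interval -10.5 to 9.71). A locus counted as bound where any of its genes was, so a locus of several genes had more chances than a locus of 1 gene. The shares per locus and per gene thus measure different things. The loci were added after seeing the data.

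Loci of several genes with a bound gene mostly had 1. Of the 31 bound loci of this kind, 23 had 1 bound gene, 8 had 2 and none had more, although a locus holds up to 6 genes. These counts depend on how finely the list resolves neighbours, because each peak has 1 summit and fragments were between 200 and 800 bp. Of the 236 clustered genes, 109 had another tRNA gene at 0 to 200 bp. Whether peaks at such close genes could be told apart was not tested. The X-linked locus from 8154445 to 8156707 holds 6 genes for serine, aspartate, methionine and isoleucine tRNAs, and 1 was bound. The X-linked locus from 14135045 to 14137010 holds 6 histidine genes, none of them bound, and the median share of unique words in their flanks was 22.9%. A single summit lay within 100 bp of a pair of genes in 7 cases, and these 14 genes all counted as bound. Each pair lay within 1 locus, so in 7 of the 8 loci with 2 bound genes both were called from a shared summit. The strongest was between the serine genes C53C7.t1 and C53C7.t2 on X, with a signal of 367 and ranks 236 and 83. The next were M02F4.t1 (glycine) with M02F4.t2 (glutamate), at 358, C16B8.t2 with C16B8.t3, both proline, at 332, T23F1.t1 (lysine) with T23F1.t2 (proline), at 330, and the glycine genes F49D11.t1 and F49D11.t2, at 216.

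The X chromosome holds 276 of the tRNA genes (45.1%), and the share bound there was not distinguishable from that on the autosomes over all genes. On X 75 genes were bound (27.2%), against 84 of 336 autosomal genes (25.0%), a difference of 2.17 points (interval -4.76 to 9.2). Taken alone, replicate 1 gave 24.3% against 17.0%, a difference of 7.31 points (interval 0.898 to 13.8), and replicate 2 gave 27.9% against 26.5%, a difference of 1.41 (interval -5.61 to 8.53). Among isolated genes alone, 55 of 141 X-linked genes were bound (39.0%), against 65 of 235 autosomal genes (27.7%), a difference of 11.3 points (interval 1.59 to 21.2). Among clustered genes the X share was 14.8%, against 18.8% on the autosomes. Per locus the shares were 36.9% of 195 X-linked loci and 28.1% of 281 autosomal loci. The difference was 8.81 points (interval 0.309 to 17.3). A locus with more genes had more chances to count as bound, and the X-linked loci held 276 genes against 336 in the autosomal loci. The splits by clustering and by locus were made after seeing the data, and the difference between isolated and clustered genes in the X effect was not tested. Of the autosomes, III had the highest share bound, 32.8% of 64 genes, and V the lowest, 17.9% of 78.

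Position inside a host gene made no difference that could be detected. Of 283 tRNA genes in introns of protein-coding genes 71 were bound (25.1%), against 85 of 319 intergenic genes (26.6%), a difference of -1.56 points (interval -8.5 to 5.48). Genes on the strand of their host were bound in 24.2% of 161 cases and those on the opposite strand in 26.2% of 122. The remaining 10 genes overlap a protein-coding gene in another way, and 3 of them were bound, among them C28G1.t1. The hosts are 219 genes, most with 1 tRNA gene. Of the 5 tRNA genes within ajm-1, the gene of an apical junction protein, none was bound, and of the 5 within K01A12.3, 1 was. Nearness to a protein-coding start site also went with little change, with 24.7% bound of 231 genes within 1000 bp and 26.8% of 381 genes farther away.

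Among the 20 standard isotypes the share bound ran from 12.9% to 53.8%, with wide intervals that all overlap. Cysteine was highest, with 7 of 13 genes bound (53.8%, interval 25.1 to 80.8%), and valine lowest, with 4 of 31 (12.9%, interval 3.63 to 29.8%). In the replicates alone, 46.2% of the cysteine genes were bound in replicate 1 and 61.5% in replicate 2, and these shares for valine were 12.9% and 19.4%. The other isotypes lay between 17.9% (serine, 7 of 39) and 33.3% (aspartate, 9 of 27). Glycine, the most numerous isotype, had 16 bound of 55 genes. The 6 bound cysteine genes other than C37A2.t1 had signals from 172 to 278. The 1 selenocysteine gene, K11H12.t1, had a summit in the relaxed list only, and none of the 5 genes with no stated isotype was bound. Genes with an intron of their own were bound in 8 of 29 cases (27.6%).

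**Figure D3:**
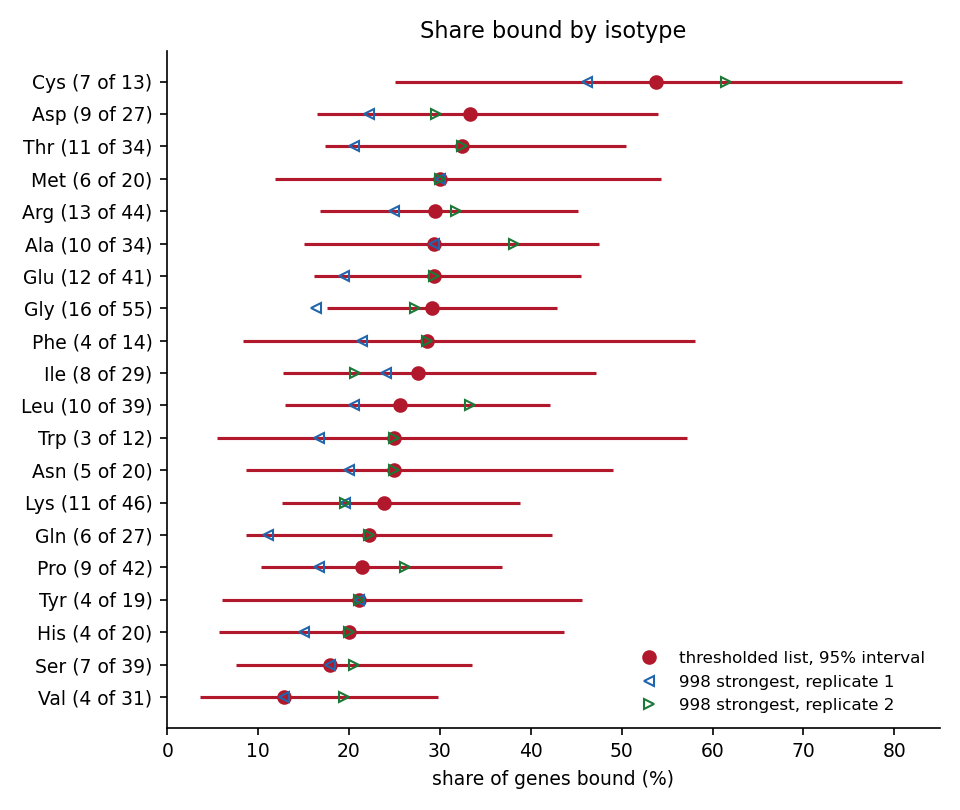
Share of the genes of each isotype that were bound (x axis, %), with the counts beside each name. Filled points and lines are the thresholded list with exact 95% intervals, and open triangles are the same number of strongest peaks of each replicate. Cysteine stood highest and valine lowest in the thresholded list, and the intervals of all isotypes overlap.

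Most summits lay within the gene, and their median position was nearer to its start than to its end. Counted along the strand of the gene from its first base, the strongest summit at the 159 bound genes had a median position of 21 bp (95% interval of the median 14 to 36, quartiles 1.5 and 53.5). It lay within the gene in 102 cases (64.2%), upstream in 37 (23.3%) and downstream in 20 (12.6%). The bin with the most genes was 0 to 19 bp, with 41, and a further 20 were between 40 and 21 bp upstream, the side on which TFIIIB binds. The medians in the replicates were 19 bp in replicate 1 and 18 bp in replicate 2. The lean to the start was small: of the 102 summits within genes, 57 lay before the midpoint of the gene and 45 after it. In the relaxed list of both replicates these counts were 93 and 90, and the median position at its 336 genes was 28.5 bp. Just inside the limit of 100 bp were W10G11.t2, M02F4.t2 and C53C7.t1, at 87, 94 and 97 bp from a summit, and just outside were Y22D7AL.t3, T04D3.t2 and F12D9.t3, at 108, 114 and 121 bp. Widening the limit to 250 bp raised the number of bound genes to 170.

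No difference between bound and other genes could be detected in the words of the internal promoter. The B box word GTTCGANNC, searched on the strand of the gene, was in 115 of the 159 bound genes (72.3%), in 74.0% of the 177 genes with a summit in the relaxed list only and in 70.7% of the 276 with none. Bound minus all other genes, the difference was 0.362 points (interval -8.04 to 8.05). The A box word TGGNNNAGT was in 30.8%, 29.4% and 29.3% of these groups. The homeodomain word TAATTR, searched on both strands from 50 bp before to 50 bp after the gene, was at 10 bound genes (6.29%, interval 3.06 to 11.3%), at 10.2% of the genes with a summit in the relaxed list only and at 10.5% of those with none. Of all 172 bp windows of the nuclear genome, which is the length of a median tRNA gene with those flanks, 20.3% held TAATTR. These windows were matched in length only, not in base composition, so the shares are not directly comparable. The bound genes with the word included C02B4.t2, F32A6.t1 (phenylalanine) and ZK563.t1 (threonine), with signals of 513, 360 and 347. A match is a description of the letters, not a binding site.

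The base composition of the 50 bases before the gene differed between the groups. The 50 bases upstream had a median G+C content of 46% at bound genes (quartiles 42 and 54), 44% at genes with a summit in the relaxed list only (38 and 50) and 38% at genes with none (32 and 44). The genes themselves had medians of 58.9%, 58.3% and 58.3%, and the 50 bases after them had 26% in each group. The order of bound genes above genes with no summit held on X (46% and 36%), on the autosomes (48% and 40%), among isolated genes (48% and 38%), clustered genes (44% and 36%), repeated sequences (46% and 38%) and unique sequences (50% and 38%). The gap was widest far from the gene: between 50 and 41 bp upstream the mean was 49.9% at bound genes, 43.1% at genes in the relaxed list only and 35.9% at genes with no summit. In the last 10 bases before the gene these means were 48.1%, 49.9% and 44.9%. Bases farther than 50 bp upstream were not compared, so where the gap ends is not known. The comparison was chosen after seeing the data. Single genes need not follow it: C28G1.t1 and Y105C5B.t3 both had 38%, and B0491.t2, with no summit, had 44%.

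**Figure D4:**
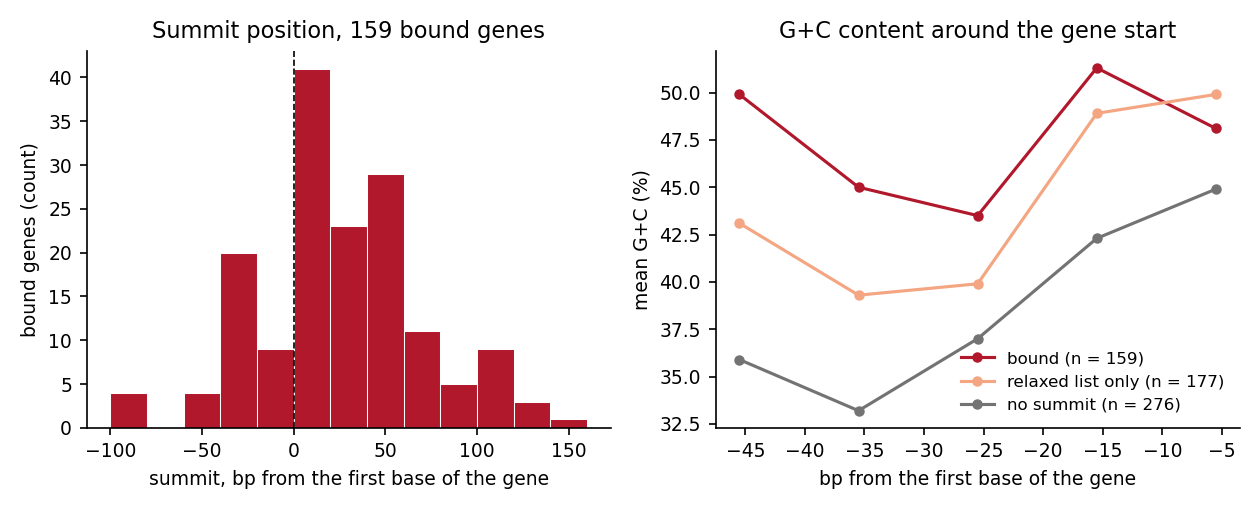
Left, position of the strongest summit at the 159 bound genes along the strand of the gene (x axis, bp from its first base, bins of 20 bp; y axis, number of genes), with 41 genes in the bin from 0 to 19 bp. Right, mean G+C content (y axis, %, not starting at 0) in bins of 10 bp upstream of the gene start (x axis) for bound genes, genes in the relaxed list only and genes with no summit, with bound genes highest in all bins but the last and genes with no summit lowest throughout.

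Most bound genes recurred in both replicates, and tRNA genes ranked higher in replicate 2. The thresholded list was made from both replicates, so this is not an independent repeat. Among its strongest peaks, as many as the thresholded list holds, replicate 1 had a summit at 124 tRNA genes (20.3%), against 1.60% of the other nuclear genes, and in replicate 2 there were 166 (27.1%), against 1.67%. Of these, 119 genes were shared, which is 96.0% of the genes of replicate 1 and 71.7% of those of replicate 2. This overlap was not counted for the other nuclear genes, so whether tRNA genes recurred more often than others is not known from it. Of the 159 bound genes, 118 (74.2%) were in both sets, 34 in that of replicate 2 only, 4 in that of replicate 1 only and 3 in neither. At any rank, 155 had a summit in both replicates, with a median of 28 bp between the summits.

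At these 155 genes the rank was higher, that is nearer to the strongest peak, in replicate 2 for 129 (83.2%), with median ranks of 421 in replicate 1 and 232 in replicate 2. At 782 other nuclear thresholded peaks found in both replicates, it was higher in replicate 2 for 386 (49.4%), with median ranks of 544 and 566. The signals of the 155 genes in the replicates had a Spearman rho of 0.81 across genes, against 0.471 across the 782 other peaks. This is a description with no test, in which points share libraries and the gene sets share peaks. The sets were also matched differently, by summits within 100 bp of the gene or, for other peaks, of the thresholded summit. Their spread of signal differed too, with thresholded quartiles of 178 and 337 at tRNA genes and 155 and 239 at other nuclear peaks. The bound genes whose ranks differed most were F49D11.t1 (18031 in replicate 1 and 255 in replicate 2), ZK507.t1 (asparagine, 9158 and 411), T18D3.t1 (alanine, 5348 and 290), F10C1.t1 (glycine, 496 and 8351) and C24H11.t1 (threonine, 4124 and 409). Of these 5, F10C1.t1 alone ranked higher in replicate 1. The summits taken in replicates 1 and 2 lay apart, so these ranks can belong to different peaks. Counted from the first base, they were at 101 and -81 bp for F49D11.t1, -22 and 33 for ZK507.t1 and 120 and 10 for T18D3.t1. For F10C1.t1 they were at 127 and 17 bp, and for C24H11.t1 at -14 and 54. F49D11.t2, which shares the thresholded summit of F49D11.t1, had rank 716 in replicate 1. The read depth of each replicate is not known from these lists.

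**Figure D5:**
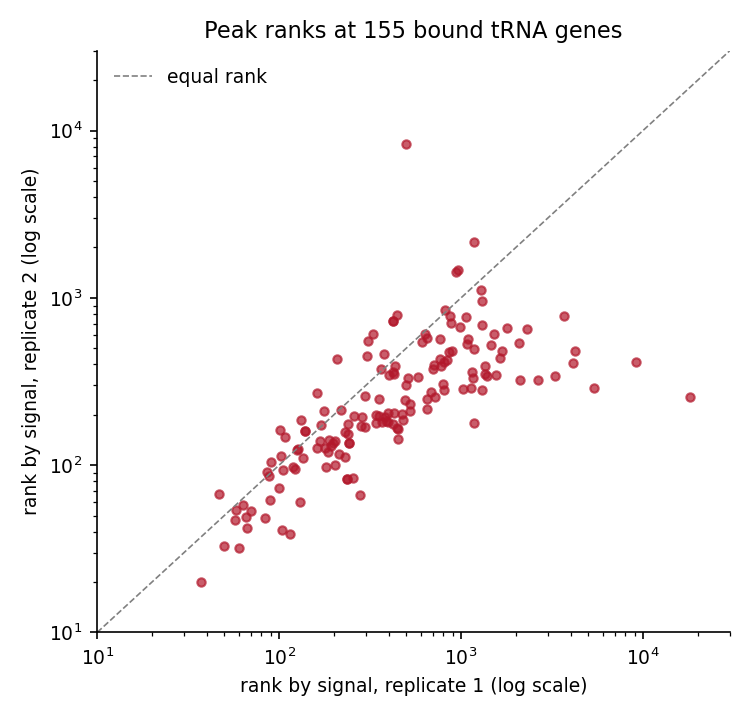
Rank by signal of the strongest summit at each of the 155 bound tRNA genes found in both replicates, replicate 1 on the x axis and replicate 2 on the y axis, both on log scales with rank 1 the strongest peak. Each point is a gene and the dashed line marks equal rank, and 129 of the points lie below it, at the higher rank in replicate 2.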

How the data were processed

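The labels name 1 group with 2 biological replicates. The authors deposited 4 peak lists on ce11, the same assembly as WBcel235, and per the labels' text files they are a relaxed list for each replicate and for both replicates, and a thresholded list. Each peak carries a signal value from the authors' peak caller, a deposited −log10 q-value, which was not used, and a summit. The replicates share a control alignment; the labels and headers do not name its nature, the aligner, the caller or the reproducibility cutoff. Gene positions came from Ensembl release 115. Symbols, isotypes (607 of 612 genes), pseudogenes and sequence came from RefSeq on WBcel235. Anticodons were not used.

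The strongest summit within 100 bp was assigned to each gene, a step checked on planted summits. Shares have exact 95% intervals, and differences have Newcombe intervals (statsmodels 0.14.6, scipy 1.17.1, Python 3.11.15). Sequence was unique where a 31-base word occurred once in the genome, in flanks of 250 bp. Genes named were the 10 highest signals, 5 identical pairs, the 5 strongest shared summits, the 5 largest rank ratios and the genes nearest the 100 bp limit. The members and lists were chosen with earlier results of these data known. Alternatives changed replicates, thresholds, windows and definitions. The labels call the replicates biological and give each a biological sample record of its own.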

Additional observations from a re-analysis of the deposited data

How the results depend on the processing

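The share bound was 26.0%, and it ranged from 20.3% to 27.1% over the runs that left out 1 replicate each. It was 17.6% with the stronger 50% of thresholded peaks, 31.4% with 2 times as many peaks, taken from the relaxed list, 16.7% with the summit inside the gene and 31.7% per locus of genes within 1000 bp. The share of bound genes in both replicates was 89.3% with 2 times as many peaks of each, against 74.2%. Clustered minus isolated kept its sign in 14 of 14 alternatives, and its interval left out 0 in 13, the exception being loci at -0.915. A locus counted as bound where any of its genes was, so that value does not compare shares per gene. Unique minus repeated kept its sign in 13 of 14, and its interval left out 0 in 12, not among clustered genes at -8.83 nor in the reversed value below. The reversed value, 26.1 (interval -39.8 to 29.7), came from counting genes as repeated with 50 bp to each side, where 2 genes are repeated and none is bound. X minus autosomes left out 0 in 4 of 14, among them isolated genes at 11.3 and the stronger 50% of peaks at 8.77. Intron-hosted minus intergenic left out 0 in none of 14. The median summit position stayed within 15 to 33 bp. No paired analysis was possible because there is 1 group. Read depth, which limits all shares, is unknown.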
